A study of Mus musculus with 6 samples.

Results

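Matrix glycoproteins, proteoglycans and the enzymes that cross-link or process the matrix were followed as a list of 43 genes in fibrotic mouse kidneys on 2 genetic backgrounds. A gene was included when array rows carrying its symbol and no other were present, which held for all 43 listed genes among 20416 genes measured in the same way. The 43 genes rested on 921 exon rows, from 3 for Fmod to 98 for Hspg2, and each gene value is a summary of its rows on the log2 intensity scale. Measured values are no part of this rule, but the list was drawn up with earlier results of these data known, so its counts are descriptions and no independent evidence.

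The arrays came from kidneys of mice labelled as having induced renal fibrosis, with TGF-β1 named in the series title as the inducing cytokine. The first group, B6-TGFbeta (replicates 1, 2 and 3), is named for B6, the usual short name of the C57BL/6 strain, and carries the word WT in its labels. The second, CBAxB6-TGFbeta (replicates 4, 5 and 6), is named for CBA and B6 together and carries the word KO, with no deleted gene named. Both groups carry TGFbeta in their labels, no array analysed here came from kidneys without it, and the labels do not say how it was raised. Strain differences that were there from the start and differences in the reaction to TGF-β cannot be told apart, nor can background and the KO label. The labels describe littermates matched by age and sex but give neither, and nothing in them says that each array was a separate animal, so p-values measure the spread between these arrays.

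The extracellular matrix between kidney cells is built from collagens together with adhesive glycoproteins such as fibronectin and the tenascins, microfibrils of fibrillin that carry elastin, and proteoglycans whose sugar chains hold water and growth factors. Lysyl oxidases join collagen and elastin chains covalently, and lysyl and prolyl hydroxylases prepare collagen chains for folding and cross-linking. In renal fibrosis fibroblasts and myofibroblasts deposit such matrix in the interstitium, and TGF-β is a well-known inducer of many of these genes.

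All 6 arrays carried kidney RNA. Umod, the uromodulin gene of the thick ascending limb, had log2 intensities of 11.96 to 12.27. Array medians lay between 7.27 and 7.34. Several arrays also carried markers of neighbouring tissue. The fat marker Ucp1 stood at 10.93 in B6-TGFbeta replicate 2 and at 5.13 to 6.22 in the other arrays. CBAxB6-TGFbeta replicate 4 had Adipoq, another fat gene, at 6.58 beside 8.57 in B6-TGFbeta replicate 2 and 4.88 to 5.004 elsewhere. Star, an adrenal steroid gene, stood at 8.90 and 10.74 in B6-TGFbeta replicates 1 and 2 and at 5.86 to 6.46 in the others, and Alb, the liver gene for albumin, stood at 9.45 in B6-TGFbeta replicate 2, 10.94 in CBAxB6-TGFbeta replicate 6 and 6.00 to 6.29 elsewhere. The genes that passed, and those whose values turn on a single array, are therefore also given with arrays left out.

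Of the 43 genes, 4 were higher in CBAxB6-TGFbeta, 4 were lower and 35 did not pass at an adjusted p under 0.05 (limma, Benjamini-Hochberg adjustment over all 20416 genes). The higher genes were Vcan, Tnc, Loxl2 and Fbn1, and the lower ones Tnxb, Fbln5, Prelp and Mfap4. They make up 9.30% of the list in each direction, beside 3.08% of all genes that were higher and 4.57% that were lower. The listed genes were also brighter, with a median log2 level of 9.16 against 6.94 over all genes. Without the dimmest 25% of genes, 11.3% of the remaining 15312 genes passed, beside 7.65% of all genes. In that setting 10 of the 43 passed. The part of brightness in these shares was not tested. With a second quantile normalization the split was 7 higher and 3 lower, and with median centring 9 higher and 3 lower. Over all genes the splits were 708 higher and 883 lower with the former and 752 and 805 with the latter. The median log2 difference over the 43 genes, CBAxB6-TGFbeta minus B6-TGFbeta, was 0.07, against 0.02 over all genes. The groups did not overlap for 15 genes (34.9%) with higher and 7 (16.3%) with lower CBAxB6-TGFbeta values, against 13.5% and 13.4% of all genes.

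**Figure D1:**
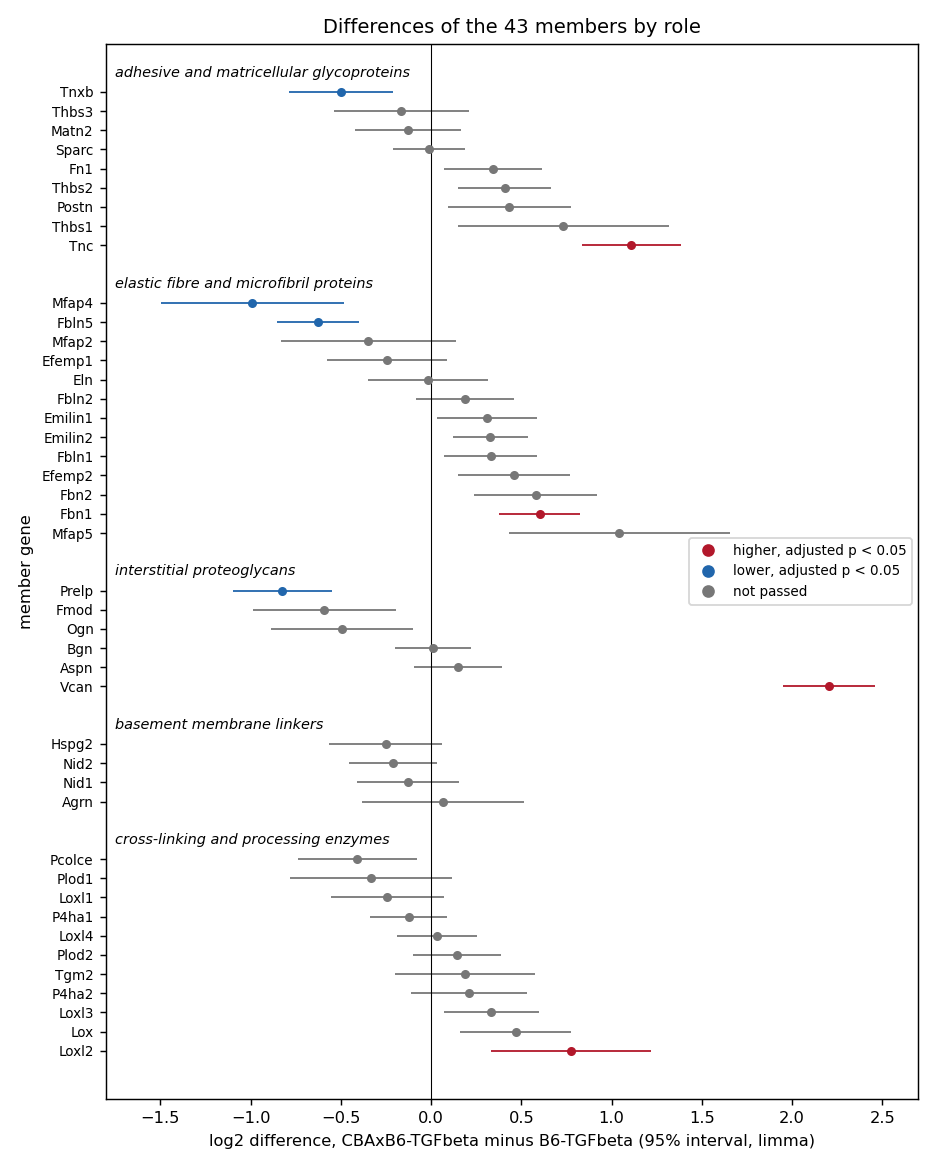
Log2 differences (CBAxB6-TGFbeta minus B6-TGFbeta) of the 43 genes with 95% intervals from limma on the horizontal axis, 1 gene per line, grouped by role and coloured by whether they passed at an adjusted p under 0.05. Vcan at 2.20 stands apart on the right, the 4 lower genes lie between -0.99 and -0.50, and every role except the basement membrane linkers holds differences in both directions beyond 0.3.

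The sequences before the annotated start sites of 4 of these genes are shown because they belong to the genes whose levels differed in opposite directions, with Vcan, Tnc and Fbn1 higher and Fbln5 lower. They are the 250 bases upstream of the start (RefSeq, mouse build GRCm38.p6, minus strand for all 4), printed 5′ to 3′ from chr13:89742513-89742762 for Vcan, chr4:64047016-64047265 for Tnc, chr2:125506439-125506688 for Fbn1 and chr12:101819120-101819369 for Fbln5. Capitals mark matches to 4 short motifs searched on both strands.
Vcan: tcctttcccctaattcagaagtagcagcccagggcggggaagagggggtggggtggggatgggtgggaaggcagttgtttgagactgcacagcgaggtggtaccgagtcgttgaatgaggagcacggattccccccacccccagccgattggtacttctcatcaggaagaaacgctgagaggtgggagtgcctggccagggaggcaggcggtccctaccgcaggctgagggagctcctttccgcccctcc
Tnc: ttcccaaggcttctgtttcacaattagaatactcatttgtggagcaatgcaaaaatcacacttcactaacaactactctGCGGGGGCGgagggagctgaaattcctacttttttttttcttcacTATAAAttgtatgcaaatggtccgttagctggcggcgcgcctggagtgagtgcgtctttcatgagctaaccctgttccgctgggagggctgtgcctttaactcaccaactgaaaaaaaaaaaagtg
Fbn1: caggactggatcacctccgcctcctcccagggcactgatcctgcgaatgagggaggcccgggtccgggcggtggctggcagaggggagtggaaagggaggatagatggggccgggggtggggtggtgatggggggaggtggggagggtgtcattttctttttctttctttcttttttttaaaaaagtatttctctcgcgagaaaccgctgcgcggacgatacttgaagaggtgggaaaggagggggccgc
Fbln5: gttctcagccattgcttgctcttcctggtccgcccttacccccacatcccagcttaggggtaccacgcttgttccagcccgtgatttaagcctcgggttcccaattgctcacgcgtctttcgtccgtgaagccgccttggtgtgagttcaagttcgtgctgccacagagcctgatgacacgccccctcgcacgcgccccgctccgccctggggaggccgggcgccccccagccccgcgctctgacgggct

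The first motif was TATAAA, known as the TATA box. The second was TGANTCA, bound by AP-1 factors. The third was GCGNGGGCG, bound by the zinc finger factors of the EGR family, of which EGR2 is named in the series title. The fourth was CAGACA, a motif of the SMAD proteins that carry TGF-β signals. The printed Tnc window held an EGR match that begins 171 bases before its start and a TATAAA match that begins 126 bases before it. No match to the 4 motifs lay in the windows printed for Vcan, Fbn1 and Fbln5, which says only that those letters are not in these windows. A second annotated window, with a start further downstream, held a SMAD match for Fbln5, and for Tnc a SMAD match beside the same EGR and TATAAA letters. Among 29 listed genes with a window in the table, 3 held the EGR motif in at least 1 window (Agrn, Fbln1 and Tnc), 2 the AP-1 motif (Efemp1 and Tnxb), 6 the TATA motif and 7 the SMAD motif. Of all 32851 windows of this length, 4.70% held the EGR motif, 6.75% the AP-1 motif, 12.4% the TATA motif and 17.1% the SMAD motif. These shares are per window, while the listed genes were counted per gene and some have several windows. The figures are therefore not directly comparable. Matches did not overlap in the printed windows. Agrn and Fbln1 did not pass, with log2 differences of 0.07 and 0.33. The matches are descriptions of letters and not binding sites.

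Among the 9 adhesive and matricellular glycoproteins, Tnc was higher, Tnxb was lower and 7 did not pass. Tenascin C, encoded by Tnc, is a large glycoprotein of embryonic, healing and fibrotic tissue. Its log2 intensities were 9.15, 9.12 and 9.08 in B6-TGFbeta replicates 1 to 3 and 10.33, 10.37 and 9.97 in CBAxB6-TGFbeta replicates 4 to 6. The B6-TGFbeta arrays were nearly equal and every CBAxB6-TGFbeta array lay above them. The log2 difference was 1.11 (SE 0.12), 2.16-fold on the linear scale, with an adjusted p of 0.00114. With replicate 1, 2, 3 or 5 left out Tnc did not pass (adjusted p 0.0631 to 0.0771), at log2 differences of 1.02 to 1.14.

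Tenascin X, encoded by Tnxb, is a collagen-associated glycoprotein of loose connective tissue, and it differed in the opposite direction from Tnc. Its log2 intensities were 6.84, 7.08 and 6.83 in B6-TGFbeta and 6.19, 6.47 and 6.58 in CBAxB6-TGFbeta. The groups did not overlap, and replicate 6 lay nearest to B6-TGFbeta. The log2 difference was -0.50 (SE 0.13), or 1.41-fold lower, with an adjusted p of 0.0481. This call was the nearest to the threshold among the 8. It was lost under a second quantile normalization (adjusted p 0.0591), median centring (0.0683) and without any single array (0.210 to 0.377), and the difference was -0.29 without B6-TGFbeta replicate 2 and -0.26 without CBAxB6-TGFbeta replicate 4.

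Of the adhesive glycoproteins that did not pass, Thbs2, Postn and Fn1 had the smallest p-values, and their groups did not overlap. Thrombospondin 2, a matricellular regulator of collagen assembly encoded by Thbs2, measured 8.60 ± 0.10 on the log2 scale in B6-TGFbeta and 9.002 ± 0.17 in CBAxB6-TGFbeta (SD, n = 3 each), with an adjusted p of 0.0667 in limma. Periostin (Postn) had 10.15 ± 0.29 and 10.58 ± 0.15, and fibronectin (Fn1) had 11.71 ± 0.03 and 12.05 ± 0.21 (SD, n = 3 each), both with an adjusted p of 0.130 in limma. Thrombospondin 1, encoded by Thbs1 and known as an activator of latent TGF-β, varied widely in CBAxB6-TGFbeta, with 11.01, 10.36 and 9.75 beside 9.77, 9.65 and 9.50 in B6-TGFbeta. Replicate 6 lay inside the B6-TGFbeta range, and the adjusted p was 0.134. Sparc, an abundant collagen-binding glycoprotein, had a log2 difference of -0.01 with a 95% interval of -0.21 to 0.19. Thbs3 and Matn2 had differences of -0.17 and -0.13 and overlapping groups. Without replicate 4 the differences were 0.27 for Thbs2, 0.19 for Fn1 and 0.40 for Thbs1, without replicate 3 that of Postn was 0.25, and without replicate 6 that of Thbs3 was -0.03.

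The elastic fibre and microfibril proteins differed in both directions. Of 13 genes, Fbn1 was higher, Fbln5 and Mfap4 were lower and 10 missed the threshold. Their median log2 difference was 0.31. Fibrillin 1, encoded by Fbn1, forms the microfibril backbone and binds latent TGF-β complexes. It had 10.01, 10.15 and 10.01 in B6-TGFbeta and 10.75, 10.67 and 10.56 in CBAxB6-TGFbeta, with no overlap between the groups. The log2 difference was 0.60 (SE 0.10), 1.52-fold, with an adjusted p of 0.00839. Fbn1 missed the threshold without any 1 of replicates 1 to 5 (adjusted p 0.0654 to 0.136), at differences of 0.50 to 0.58, and on its brightest row alone (0.51, adjusted p 0.191).

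Fibulin 5, encoded by Fbln5, binds elastin and lysyl oxidase-like 1 and is needed for elastic fibre assembly. Its intensities were 11.40, 11.24 and 11.40 in B6-TGFbeta and 10.80, 10.76 and 10.60 in CBAxB6-TGFbeta. All 3 CBAxB6-TGFbeta values were below all B6-TGFbeta values, and 13 of 13 exon rows had a negative difference. The log2 difference was -0.63 (SE 0.10), or 1.55-fold lower, with an adjusted p of 0.00743. Microfibril-associated Mfap4 was also lower, with 11.05, 11.03 and 11.20 in B6-TGFbeta and 10.34, 10.48 and 9.49 in CBAxB6-TGFbeta. Replicate 6 was the lowest array for Mfap4, the log2 difference was -0.99 (SE 0.23), or 1.99-fold lower, and the adjusted p was 0.0308. Without any single array, Fbln5 (adjusted p 0.0519 to 0.133, difference -0.68 to -0.52) and Mfap4 (0.0502 to 0.311, difference -1.17 to -0.67) both missed the threshold, and on their brightest rows they stood at -0.46 and -0.79 and did not pass.

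Mfap5, Fbn2 and Emilin2 came nearest to the threshold among the remaining microfibril genes. Mfap5, a microfibril-associated glycoprotein, had 8.95, 9.96 and 9.38 in B6-TGFbeta and 10.98, 10.26 and 10.17 in CBAxB6-TGFbeta. Its log2 difference of 1.04 was larger than that of Fbn1, but the SE was 0.27 and the adjusted p 0.0501. Fibrillin 2 (Fbn2), the fibrillin most abundant in development, had 6.54, 6.64 and 6.63 against 7.51, 7.18 and 6.86, a difference of 0.58 (SE 0.15) with an adjusted p of 0.0513. Emilin2, an elastic fibre interface protein, had 6.00 ± 0.06 and 6.33 ± 0.05 (SD, n = 3 each) with an adjusted p of 0.0658 in limma. In all 3 genes the groups did not overlap. Fbn2 passed under 7 of the 16 other settings and Mfap5 under 5, but neither passed with any single array left out, and the difference was 0.31 for Fbn2 without replicate 4 and 0.21 for Emilin2 without replicate 6.

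The other 7 elastic fibre genes did not pass. Efemp2, Fbln1 and Emilin1 had log2 differences of 0.46, 0.33 and 0.31 with groups that did not overlap. For Emilin1 the groups all but touched, at 7.2805 in B6-TGFbeta replicate 3 and 7.2809 in CBAxB6-TGFbeta replicate 6. Elastin itself (Eln), the rubber-like core of the fibre, had 8.56, 8.64 and 8.99 in B6-TGFbeta and 8.90, 8.75 and 8.48 in CBAxB6-TGFbeta. Its values overlapped, with a difference of -0.02 and a 95% interval of -0.35 to 0.32. Fbln2 stood at 0.19, Efemp1 at -0.24 and Mfap2 at -0.35, all with overlapping groups. Leaving out replicate 5 gave 0.29 for Efemp2, which passed without replicate 6, and 0.22 for Fbln1. Leaving out replicate 4 gave 0.08 for Fbln2, -0.13 for Efemp1 and -0.58 for Mfap2, and leaving out replicate 6 gave -0.13 for Mfap2. Within the fibulins, counting the fibulin relatives Efemp1 and Efemp2, the differences thus ran from -0.63 for Fbln5 to 0.46 for Efemp2, and the differences between these genes were not tested.

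**Figure D2:**
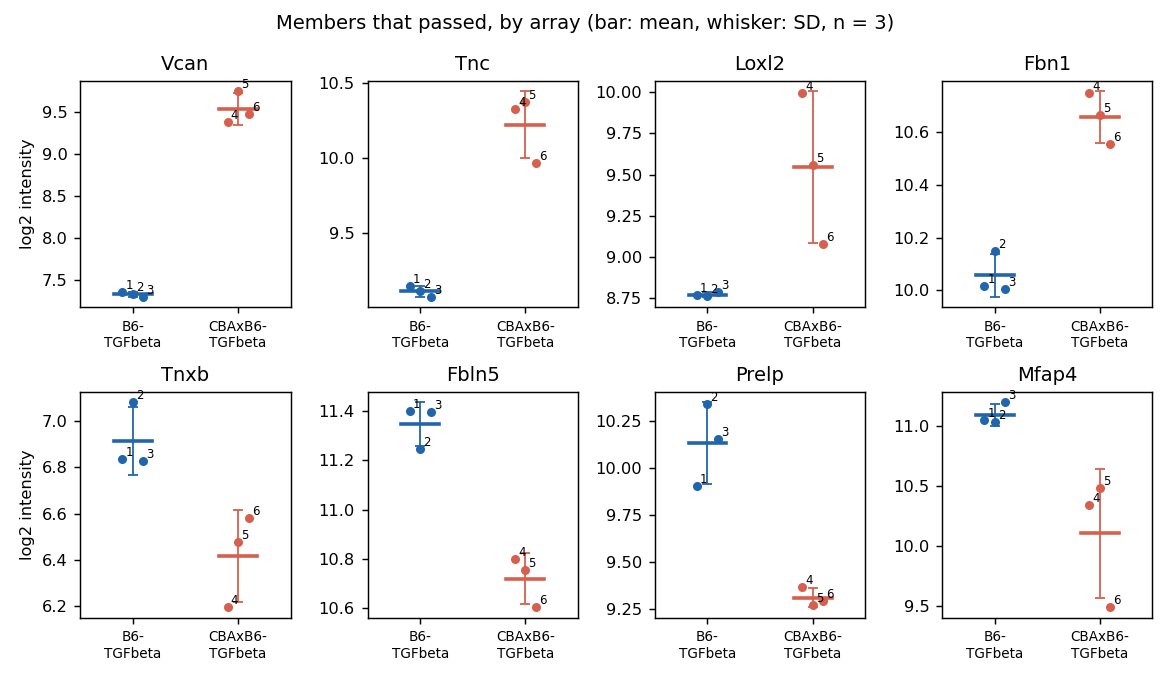
Log2 intensity (vertical axis, scale set per gene) of the 8 genes that passed, by group on the horizontal axis, with each array as a numbered point, the mean as a bar and the SD as a whisker (n = 3). All 8 genes have groups that do not overlap, and CBAxB6-TGFbeta replicate 6 lies nearest to B6-TGFbeta for Tnc, Loxl2, Fbn1 and Tnxb and farthest for Fbln5 and Mfap4.

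Versican, the large chondroitin sulfate proteoglycan encoded by Vcan, showed the largest difference of the 43 genes. It binds hyaluronan, is produced by fibroblasts and monocytes, and gives provisional matrix its hydrated character. Its log2 intensities were 7.36, 7.33 and 7.30 in B6-TGFbeta and 9.37, 9.74 and 9.48 in CBAxB6-TGFbeta. The 3 B6-TGFbeta arrays were almost equal, and all CBAxB6-TGFbeta arrays lay far above them. The log2 difference was 2.20 (SE 0.11), 4.61-fold on the linear scale, with an adjusted p of 4.63e-05. Vcan passed under all 16 other settings fixed for the analysis, at differences of 2.05 to 2.37 and adjusted p-values of 1.31e-05 to 0.0458. Without B6-TGFbeta replicate 2, which carried the fat and adrenal markers, the difference was 2.18, and without CBAxB6-TGFbeta replicate 6 it was 2.17.

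The 5 listed small leucine-rich proteoglycans, of a class that binds collagen fibrils and sets their diameter and spacing, did not follow versican. Of these 5 genes Prelp was lower and 4 did not pass. Outside the list, genes of this class passed in both directions, with lumican (Lum) higher at 1.54 and podocan (Podn) lower at -0.51. Prelp, which encodes an arginine- and proline-rich proteoglycan that anchors basement membrane to connective tissue, had 9.91, 10.34 and 10.15 in B6-TGFbeta and 9.37, 9.27 and 9.29 in CBAxB6-TGFbeta. The CBAxB6-TGFbeta arrays were tightly grouped below the B6-TGFbeta ones, the log2 difference was -0.83 (SE 0.12), or 1.77-fold lower, and the adjusted p was 0.00504. Prelp missed the threshold without any single array (adjusted p 0.0539 to 0.123) at differences of -0.92 to -0.71.

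Fibromodulin (Fmod), a regulator of collagen fibril assembly that rested on only 3 rows, had 7.56, 8.22 and 7.82 in B6-TGFbeta and 7.52, 7.22 and 7.09 in CBAxB6-TGFbeta, with an adjusted p of 0.0769. Its groups did not overlap but nearly touched. Osteoglycin (Ogn) had 10.17 ± 0.11 and 9.68 ± 0.38 (SD, n = 3 each) with an adjusted p of 0.132 in limma, and replicate 6 at 10.08 lay within the B6-TGFbeta range. Biglycan (Bgn), among the best-known proteoglycans of fibrotic kidney, had 11.90, 11.91 and 12.05 against 11.98, 11.93 and 11.98, a difference of 0.01 with a 95% interval of -0.20 to 0.22. Asporin (Aspn) had a difference of 0.15 with overlapping groups. Without replicate 4 the difference of Ogn was -0.32.

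None of the 4 basement membrane linkers passed in limma, and none did at an unadjusted p under 0.05. Nidogens (Nid1 and Nid2) connect laminin with collagen IV, and perlecan (Hspg2) and agrin (Agrn) are heparan sulfate proteoglycans of the same sheets. The log2 differences were -0.21 for Nid2 (95% interval -0.45 to 0.03), -0.25 for Hspg2 (-0.56 to 0.06), -0.13 for Nid1 (-0.41 to 0.16) and 0.07 for Agrn (-0.38 to 0.52). Their groups overlapped in every case. Without replicate 6 the difference of Hspg2 was -0.12, and without replicate 2 that of Nid2 was -0.10. In CBAxB6-TGFbeta, Agrn ranged from 8.59 in replicate 4 to 7.72 in replicate 6. Its brightest row alone gave a difference of 0.90 that passed with adjustment over the brightest rows of all genes. That was the most positive of its 39 rows, which reached down to -1.56 with a median of 0.10. No Agrn row passed with adjustment over all rows.

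Of the 11 cross-linking and processing enzymes, Loxl2 was higher and 10 did not pass. Lysyl oxidase-like 2, encoded by Loxl2, oxidises lysines of collagen, including collagen IV. Its log2 intensities were 8.77, 8.76 and 8.78 in B6-TGFbeta and 9.999, 9.56 and 9.08 in CBAxB6-TGFbeta. All CBAxB6-TGFbeta arrays lay above the nearly equal B6-TGFbeta arrays, but they differed widely among themselves, with replicate 6 nearest to B6-TGFbeta. The log2 difference was 0.78 (SE 0.20), 1.71-fold, with an adjusted p of 0.0451. Loxl2 missed the threshold without any 1 of replicates 1 to 5 (adjusted p 0.200 to 0.318, differences 0.54 to 0.74), and without replicate 6 it stood at 1.06 with an adjusted p of 0.0429.

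Lox, Loxl3 and Pcolce had the next smallest p-values among the enzymes. Lysyl oxidase (Lox), the founding member of its family, had 9.22, 9.08 and 9.26 in B6-TGFbeta and 9.95, 9.57 and 9.45 in CBAxB6-TGFbeta, a log2 difference of 0.47 with an adjusted p of 0.0721. Loxl3 had 7.13 ± 0.08 and 7.47 ± 0.19 (SD, n = 3 each) with an adjusted p of 0.133 in limma. Pcolce, which encodes an enhancer of procollagen C-proteinase, had 9.91 ± 0.14 and 9.50 ± 0.27 (SD, n = 3 each), with an adjusted p of 0.136 in limma. The groups did not overlap for these 3 genes. Loxl1, which acts on elastin, and Loxl4 had differences of -0.24 and 0.03. Without replicate 4 the difference of Lox was 0.31, without replicate 5 that of Loxl3 was 0.11, and without replicate 6 that of Loxl1 was -0.07.

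The collagen hydroxylases and transglutaminase 2 had differences in both directions. The lysyl hydroxylases Plod1 and Plod2 had log2 differences of -0.33 and 0.14, the prolyl hydroxylase subunits P4ha1 and P4ha2 had -0.12 and 0.21, and Tgm2, whose product forms glutamine to lysine cross-links, had 0.19. None passed in limma or at an unadjusted p under 0.05, and P4ha1 alone among them had groups that did not overlap. The P4ha1 groups all but touched, at 9.2087 in B6-TGFbeta replicate 3 and 9.2082 in CBAxB6-TGFbeta replicate 4. Plod1 and Tgm2 ranged widely in CBAxB6-TGFbeta, from 9.17 in replicate 4 to 8.24 in replicate 6 for Plod1 and from 9.83 to 9.14 in the same arrays for Tgm2. Without replicate 6 the differences were -0.11 for Plod1 and 0.37 for Tgm2, and without replicate 5 that of P4ha2 was 0.14.

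That spread recurred across the list. CBAxB6-TGFbeta replicate 6 was the lowest array of its group for 28 of the 43 genes (65.1%), against 37.9% of all genes, and replicate 4 was the highest for 28 (65.1%), against 31.9% of all genes. The summed intensity (log2) of the fibroblast and myofibroblast markers had the same order of arrays. It was 12.93 in replicate 4, 12.68 in replicate 5 and 12.33 in replicate 6, beside 12.09 to 12.18 in B6-TGFbeta. Not every marker followed that order. Within CBAxB6-TGFbeta, Col1a2 and Col3a1 were highest in replicate 5, and Pdgfra and S100a4 were lowest there. Of those 9 markers Thy1, Col3a1 and S100a4 were higher and 6 did not pass. Of 7 macrophage markers 6 were higher, with summed levels of 10.55 to 11.03 in B6-TGFbeta and 11.57 to 12.35 in CBAxB6-TGFbeta. Of 7 tubule and podocyte markers 5 were lower, at 14.25 to 14.46 against 13.34 to 13.56, and of 6 endothelial markers 3 were lower, at 12.86 to 12.96 against 12.48 to 12.68. In whole kidney RNA, fewer cells of a type and less RNA per cell cannot be told apart, and the part these cell types have in the differences above was not tested.

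**Figure D3:**
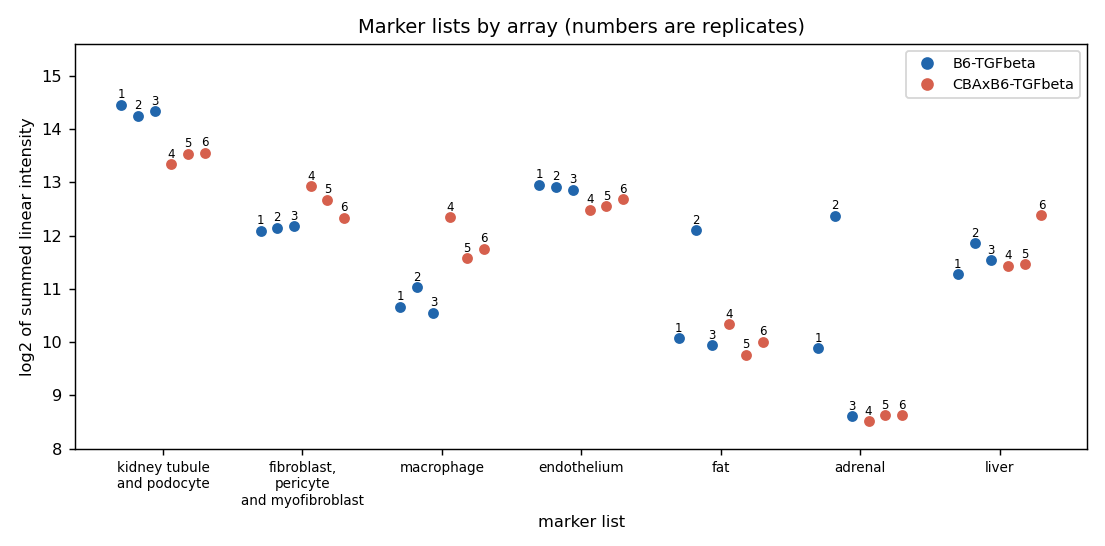
Summed linear intensity of each marker list on the vertical axis, as log2, for the 6 arrays (numbered) of the 2 groups. Macrophage markers separate the groups upwards and tubule markers downwards, fibroblast markers fall from 12.93 in replicate 4 to 12.33 in replicate 6, and the fat and adrenal lists stand out in B6-TGFbeta replicate 2.

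Exon rows were also tested one by one, with adjustment over all 212097 rows that carry 1 symbol. Of 921 rows of the listed genes, 21 were higher (2.28%) and 1 was lower (0.109%), against 0.279% and 0.351% of all rows. Rows of 1 gene share its transcripts and are not independent. Vcan held 14 of the 21, and all 15 of its rows had positive differences, from 1.39 to 2.88. The single Vcan row that did not pass had a difference of 1.43 and an adjusted p of 0.115. Tnc held 4 of its 29 rows, with differences of 1.19 to 1.94, and 28 of the 29 were positive.

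The remaining rows that passed belonged to Fbn2, Emilin2 and Tnxb. The 2 Fbn2 rows had differences of 1.69 and 1.26, well above the gene value of 0.58, while 58 of its 66 rows were positive. The Emilin2 row was dim, with 3.45 ± 0.37 in B6-TGFbeta and 5.195 ± 0.23 in CBAxB6-TGFbeta (SD, n = 3 each). The 34 Tnxb rows ranged from -2.67 to 0.65 with a median of -0.43, and 27 of them were negative. The Tnxb row that passed had 7.25 ± 0.31 against 5.34 ± 0.46 (SD, n = 3 each). Whether the strains differ in the sequences that the rows probe was not examined, for these or any other rows. Fbln5, Mfap4, Prelp, Fbn1 and Loxl2 had no row that passed. All rows of Fbln5 and Mfap4 were negative, as were 3 of the 4 Prelp rows, which ranged from -1.10 to 0.03. All 15 Loxl2 rows and 62 of the 69 Fbn1 rows were positive. The counts of rows were 0 to 9 higher and 0 lower when single arrays were left out, with 9 left without CBAxB6-TGFbeta replicate 6, 2 without B6-TGFbeta replicate 2 and 0 without any of the others (139 to 155 higher and 41 to 93 lower at an unadjusted p under 0.05 without replicate 1, 3, 4 or 5). Counts over all rows in these fits are not given here.

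**Figure D4:**
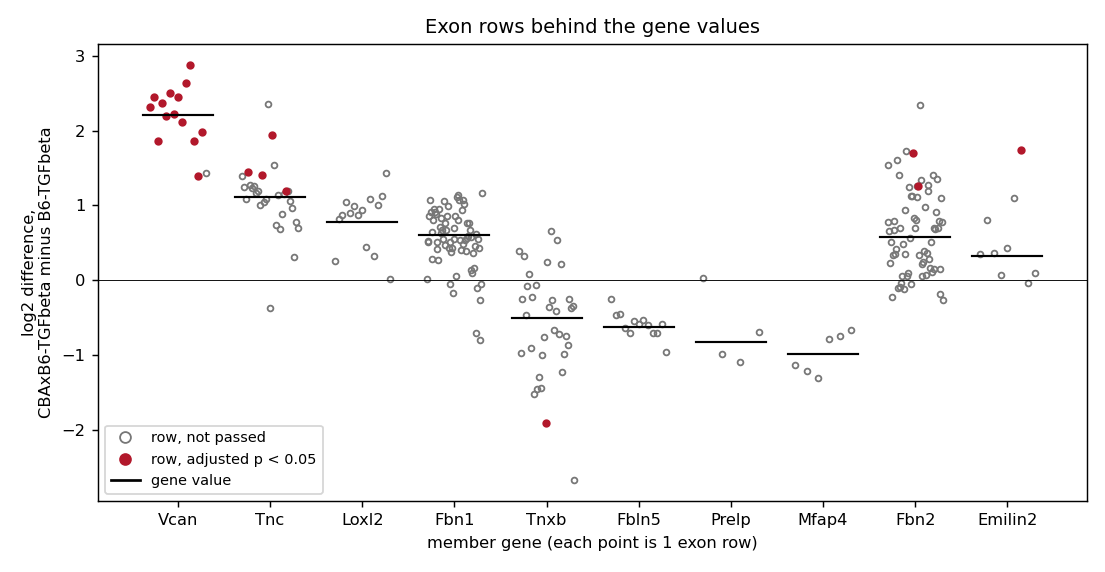
Log2 difference (vertical axis) of every exon row of 10 genes, with filled points for rows that passed over all rows and a line for the gene value. Nearly all Vcan rows passed, at 1.39 to 2.88, Tnxb rows spread from -2.67 to 0.65, and Fbln5 and Mfap4 rows all lie below 0 without passing.

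With each array left out in turn, Vcan was the gene that passed in every fit. With replicate 1, 2, 3 or 5 left out it was the only one of the 43, without replicate 4 it was joined by Tnc, and without replicate 6 by Tnc, Fbn1, Loxl2 and Efemp2. The directions of all 8 differences were kept in these 6 fits. Over all genes the number that passed also dropped, from 1562 to between 57 and 554. With B6-TGFbeta replicates 1 and 2 both left out because of their adrenal markers, a choice made after seeing the data, Vcan alone passed, with a difference of 2.25 (adjusted p 0.0320), and the lone array of that group was assumed to vary like the other group. With B6-TGFbeta replicate 2 and CBAxB6-TGFbeta replicate 6 both left out, likewise chosen after seeing the data and with the weaker adrenal signal of B6-TGFbeta replicate 1 still in the fit, 7 of the 8 passed again and Tnxb did not.

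**Figure D5:**
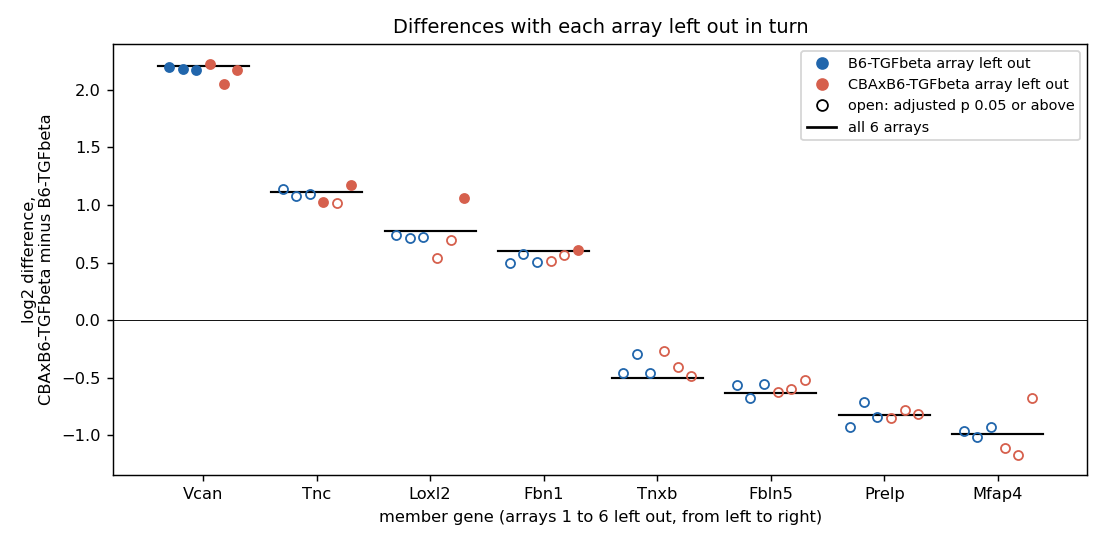
Log2 differences (vertical axis) of the 8 genes with each of the 6 arrays left out in turn, left to right within a gene, coloured by the group of the array left out, with open points where the adjusted p was 0.05 or above and a line for the value over all arrays. Vcan stays filled throughout at 2.05 to 2.23, Loxl2 ranges from 0.54 to 1.06, and no point crosses 0.

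Other matrix genes outside the list were counted in the same way. Of 89 such genes, 8 (8.99%) were higher and 5 (5.62%) lower, and the other 76 missed the threshold, beside 3.08% and 4.57% of all genes. Their median log2 difference was 0.03. Of 42 other glycoproteins 5 were higher and 2 lower, among them Ltbp2, a microfibril-associated latent TGF-β binding protein (1.07, SE 0.13), osteopontin (Spp1, 0.49, SE 0.09) and Tgfbi, named as a TGF-β induced gene (0.60, SE 0.12). Of 29 other proteoglycan and hyaluronan genes, the hyaluronan synthase Has2 (0.51, SE 0.11) and lumican (Lum, 1.54, SE 0.37) were higher and podocan (Podn, -0.51, SE 0.13) was lower. Of 18 other processing enzymes, the prolyl hydroxylase subunit P4ha3 was higher (0.74, SE 0.19), while the collagen galactosyltransferase Colgalt2, listed on the array as Glt25d2 (-1.06, SE 0.12), and the prolyl 3-hydroxylase P3h2, listed as Leprel1 (-0.48, SE 0.10), were lower. At an unadjusted p under 0.05 in limma over all 6 arrays, 16 of the 89 were higher and 16 lower. Among all 20416 genes 2134 were higher and 2265 lower at that threshold. All-gene counts at that threshold with arrays left out are not given here. With replicate 1, 3 or 5 left out, 0 of the 89 passed in limma. At an unadjusted p under 0.05, 10 to 12 of them were higher and 9 to 12 lower. With replicate 2 left out 1 was higher and 0 lower (15 and 8 at an unadjusted p under 0.05), with replicate 4 left out 1 was higher and 2 lower, and with replicate 6 left out 3 were higher and 2 lower.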

How the data were processed

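Gene expression was measured on 6 Affymetrix arrays, 3 per group. The deposited table holds log2 intensities of exon-level rows; per the submitters' processing notes the tools were RMA and Partek, with versions, settings and genome build not given in the sources used here. Of 241576 rows, 212097 carried 1 symbol in the platform annotation and were kept; 4475 with several symbols and 25004 with none were left out. Tukey's median polish over rows gave 20416 genes. Differences (CBAxB6-TGFbeta minus B6-TGFbeta) were fitted with limma 3.58.1 in R 4.3.3 on all genes, and separately on all rows, with moderated variances, no covariate and Benjamini-Hochberg adjustment over all features. No batch is given, and precision is limited by the array number. The fits were tested on simulated data.

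The genes, lists and role groups were chosen with earlier results of these data known. Each gene that passed is given on every array, with up to 3 others per role by smallest p, up to 3 passing genes per list of other matrix genes, and genes whose rows passed. Of 91 other matrix genes listed 89 were measured, 5 of them under older symbols, and of 49 markers 48. Alternatives changed the normalization, gene summary, dim-row filters, variance moderation, array weights and the arrays used. Start-site sequences are from RefSeq (GRCm38.p6) by symbol, found for 29 of 43 genes.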

Additional observations from a re-analysis of the deposited data

How the results depend on the processing

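Over all 6 arrays 4 listed genes were higher and 4 lower, and these counts moved with the processing. The higher count was 7 with a second quantile normalization, 9 with median centring, 7 with the mean over rows, 12 with array weights and 1 without moderation, and the lower count was 1 on the brightest rows and 0 without moderation, where 4 were lower at an unadjusted p under 0.05. The lower count also rose in some settings. With the mean over rows Fmod and Pcolce joined the 4 lower genes, and with array weights Ogn did. Counts over all genes moved as well. Of all genes 628 were higher over all 6 arrays, 708 with the second quantile normalization and 752 with median centring. The mean over rows gave 731, array weights 974 and no moderation 23. Lower genes numbered 934 over all 6 arrays, 1067 with the mean over rows, 1269 with array weights, 282 on the brightest rows and 40 without moderation. At an unadjusted p under 0.05 in limma over all 6 arrays, 2265 of all 20416 genes were lower, beside 7 of the 43. With single arrays left out, 1 to 5 listed genes were higher and 0 lower, with 4 to 9 lower at an unadjusted p under 0.05. Over all genes 21 to 219 were higher and 36 to 335 lower in those fits. All-gene counts at the unadjusted threshold with arrays left out are not given here. Without B6-TGFbeta replicate 2 and CBAxB6-TGFbeta replicate 6, 8 listed genes were higher, beside 461 of all genes. The median difference was 0.12 on the brighter 50% of rows and 0.0168 to 0.102 with single arrays left out.

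Of the other matrix genes, 8 higher and 5 lower over all arrays, 8 were lower with the mean over rows, 1 higher and 1 lower on the brightest rows, 2 lower on the brighter 50% of rows, 1 higher and 0 lower without moderation (15 and 11 at an unadjusted p under 0.05), 10 lower with array weights, 0 to 3 higher and 0 to 2 lower with single arrays left out, and 0 and 0 when replicate 3 alone stood for B6-TGFbeta (11 and 4 at an unadjusted p under 0.05). Of all genes, 1067 were lower with the mean over rows, 748 on the brighter 50% of rows and 1269 with array weights. Of the rows, 21 higher and 1 lower, 43 and 2 passed without the dimmest 25% of rows, 75 and 9 with an intensity trend and 32 higher with array weights. No row passed without moderation (158 and 54 at an unadjusted p under 0.05), when replicate 3 alone stood for B6-TGFbeta (105 and 19) or without B6-TGFbeta replicate 2 and CBAxB6-TGFbeta replicate 6 (202 and 43), that is 0 higher and 0 lower, and 0 to 9 higher and 0 lower passed with single arrays left out. Counts over all rows in these settings, and all-gene counts at the unadjusted threshold, are not given here. The row counts therefore have no background beside them. The causes of the changes in these counts were not tested. The last settings also used fewer arrays. None of the 8 listed genes that passed turned its direction under these alternatives. No paired analysis was possible because the groups share no replicate numbers. Rows at low intensity, such as that of Emilin2, limit what can be read from single rows.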
